A study of Apis mellifera ligustica with 11 samples.

Results

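The cytosolic ribosome of the honeybee brain was followed through the transcripts of its ribosomal protein genes. The members were the rows whose description reads 40S or 60S ribosomal protein, or ribosomal protein L or S with a number or P, leaving out mitochondrial proteins, kinases and biogenesis factors. This wording found 77 of the 9974 genes in the table, 45 of the large subunit and 32 of the small subunit, under 76 distinct protein names. The rule used no measured value.

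RNA was taken from brain tissue of Apis mellifera ligustica, the Italian honeybee, with royal jelly glands and pigments removed before extraction according to the labels. The treated bees received fluvalinate, a pyrethroid used in hives against parasitic mites, at the dosage of its instructions with an application every 7 days. Brains were sampled 1 day before exposure (3 libraries) and 10 days (2 libraries), 20 days (3 libraries) and 30 days (3 libraries) after it, and each later day was set against the day before exposure. The libraries of the day before exposure carry titles that read as control, and the protocol speaks of a control set and a test set, so whether they come from the colonies treated later or from a separate control set is not clear from the labels. No labelled library holds unexposed bees of the later days, so exposure, season and the age of the bees cannot be told apart. The labels give neither the age of the bees nor how many brains entered a library, nor whether libraries of one day came from separate colonies, so p-values measure the spread between these libraries, which may be partly technical.

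Each cytosolic ribosome holds 1 copy of nearly every ribosomal protein, assembled with ribosomal RNA into a small subunit that reads the messenger RNA and a large subunit that joins amino acids. The genes are housekeeping genes expressed in every cell type, and in animals their messengers are known to be controlled together, largely through the TOR kinase pathway. In the worker bee, glands of the head that secrete royal jelly proteins are heavily engaged in protein synthesis, while neurons need ribosomes for synaptic proteins.

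The libraries differed in their content. Values are FPKM, fragments divided by transcript length and by the size of the library, as deposited by the authors; absolute depth is unknown. Major royal jelly protein transcripts made up 1.77% to 4.42% of the summed FPKM before exposure, 27% and 23.9% in the day 10 libraries, 13.2% to 23.9% at day 20 and 1.52% to 10.4% at day 30. The 13 hypopharyngeal gland markers include apisimin and glucose oxidase as well. They summed to 12910 to 22714 FPKM before exposure, where all genes summed to 264416 to 292768 FPKM. At day 10 they summed to 214500 and 145503 FPKM, where all genes summed to 468358 and 393632 FPKM. Their sums were 64940 to 113188 FPKM at day 20 and 14102 to 82258 FPKM at day 30. Summed levels of the other markers moved too. That of the 7 neuronal markers was 457 to 509 FPKM before exposure, 196 and 286 FPKM at day 10, 361 to 399 FPKM at day 20 and 390 to 499 FPKM at day 30. The 7 glial markers summed to 2255 to 3061 FPKM before exposure, 1708 and 2168 FPKM at day 10, 2620 to 3155 FPKM at day 20 and 2188 to 3139 FPKM at day 30. Glutamine synthetase made up most of the glial sum, with 2835, 2057 and 2482 FPKM before exposure and 1560 and 1997 FPKM at day 10. The 6 fat body markers had their highest sums at day 10, with 91.7 and 98.3 FPKM against 60.1 to 71.5 FPKM before exposure, and their lowest at day 30, with 28.7 to 51.3 FPKM. They did not move alike: at day 10, 3 of the 5 tested were above the median gene and none was called. The 14 muscle markers summed to 349 to 499 FPKM before exposure, 390 and 529 FPKM at day 10, 231 to 307 FPKM at day 20 and 203 to 353 FPKM at day 30. The 8 photoreceptor markers summed to 355 to 687 FPKM before exposure, 751 and 644 FPKM at day 10, 705 to 1930 FPKM at day 20 and 1219 to 1249 FPKM at day 30. At day 10, 5 of the 7 neuronal genes were called lower, where 16.9% of all tested genes were, and 8 of the 11 tested hypopharyngeal gland markers, genes of the gland that makes royal jelly, were called higher, where 2.22% of all were (limma, adjusted p under 0.05). Without day 10 replicate 2, 1 neuronal gene was called lower and 0 gland markers higher. In tissue RNA a larger number of cells of one type and more RNA per cell cannot be told apart, and the part of any marker list in the results below was not tested.

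The ribosomal protein genes were among the most abundant transcripts of the brain. On the FPKM scale, which is per length, the mean over the 11 libraries reached 100 FPKM for 64 of the 77 members and 50 FPKM for 73, and 68 members were among the 500 highest genes of the table. The median of the 76 members that passed the filter of a mean of 1 FPKM was 205 FPKM, against 11.4 FPKM for all 7830 genes that passed it. Small subunit genes had a median level of 239 FPKM (24.7 to 566) and large subunit genes 167 FPKM (18.4 to 656). The highest tested member stood at 35.7 times the level of the lowest.

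**Figure D1:**
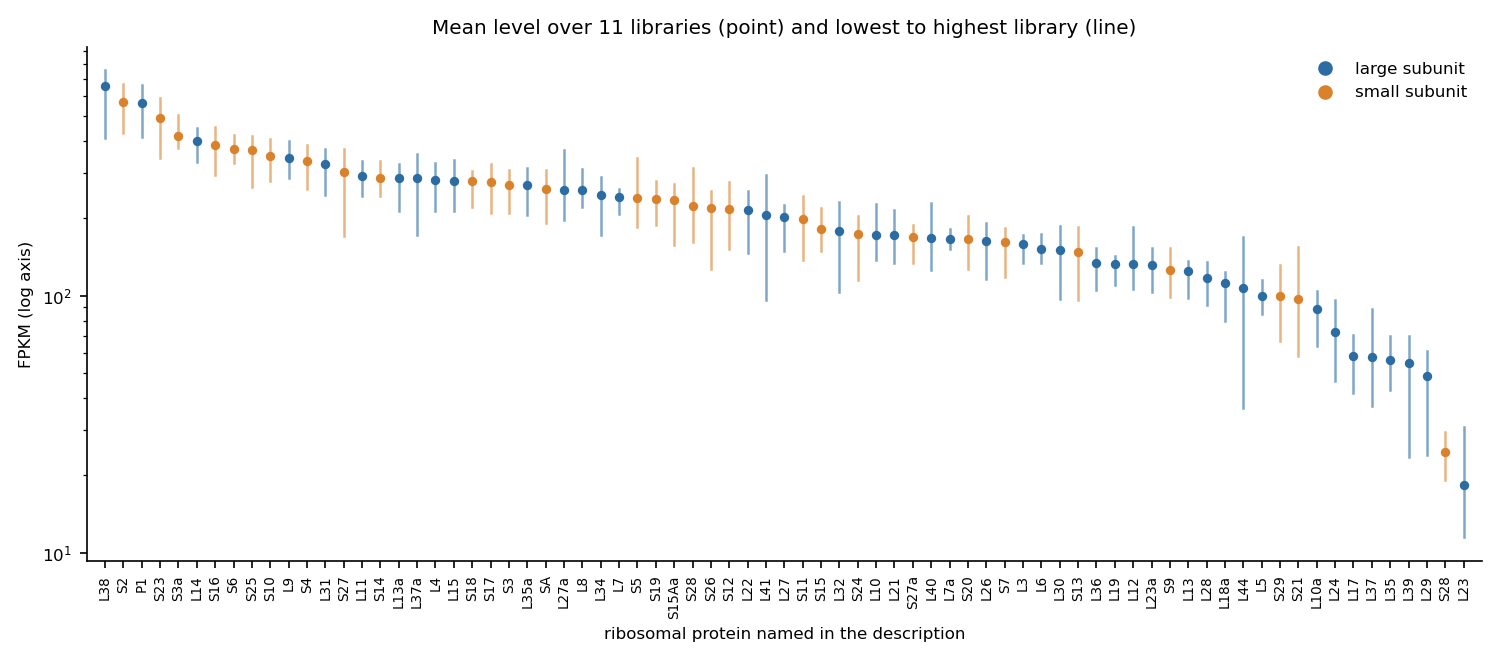
Level of 75 of the 76 tested members in FPKM on a log axis, ordered by their mean over 11 libraries (point), with the lowest and highest library as a line and the subunit as colour. The order starts with L38 at 656 FPKM and ends with L23 at 18.4 FPKM; S28 appears at 2 places because 2 genes carry that name.

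The highest members belonged to both subunits. L38 (LOC725383), known in mice for its role in the translation of patterning genes, averaged 656 ± 99.8 FPKM (SD, n = 11 libraries). S2 (LOC409326), which lies where messenger RNA enters the small subunit, averaged 566 ± 72.2 FPKM. P1 (RpLP1), a protein of the flexible stalk that recruits elongation factors, averaged 561 ± 75.3 FPKM. Both lay within 1 SD of L38. S23 (LOC552272), a protein of the decoding centre, followed with 494 ± 75.4 FPKM. The next 3 were S3a (LOC413296) with 420 ± 34.9 FPKM, L14 (LOC409290) with 400 ± 37.5 FPKM and S16 (LOC726439) with 385 ± 45.6 FPKM, each within 1 SD of its neighbour.

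L18 (LOC102654426) was the member that did not reach the filter. It was listed at 2.25 FPKM in day 10 replicate 2 and at 1.72 FPKM in day 20 replicate 1, and at 0 in the other 9 libraries. The file holds no read counts, and a listed 0 may be a failed estimate, so L18 has no place in the order of levels. The lowest tested member was L23 (LOC409294), a protein on the face of the large subunit that meets the small one, with 18.4 ± 5.34 FPKM. One of the 2 genes named S28 (LOC724629) averaged 24.7 ± 3.88 FPKM, while the other (LOC724531) averaged 224 ± 45.2 FPKM. L29 (LOC724631) averaged 48.5 ± 12.0 FPKM and L39 (Rpl39), a short protein that lines the exit tunnel of the nascent chain, 54.5 ± 12.8 FPKM. How reads were divided between near-identical copies is not given in the sources used here, so the split between the 2 S28 genes is uncertain. In the RefSeq annotation 18 members overlap the span of another gene, 4 of them that of a small nucleolar RNA gene, and whether strand was used in counting is not stated.

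The genes moved together from library to library. Of the variance of the members' log2(FPKM + 1) over the libraries, 57.9% was shared by all of them as the library mean, against 9.21% over all tested genes. No share was computed for other genes at the high level of the members. The median member had an SD over the libraries of 0.20 on the log2 scale, and of 0.11 once the mean of all members in the library was subtracted. The common movement was seen inside groups as well as between them. Before exposure replicate 1 was the lowest of the 11 libraries for 64 of the 76 members, while day 10 replicate 2 was the highest for 34 and before exposure replicate 3 the highest for 25. The mean deviation of the members was -0.42 in before exposure replicate 1 and ran from -0.10 to 0.22 in the other libraries. This 1 library therefore weighs heavily in the shared part.

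The summed level of the 77 genes was 12804, 16416 and 18923 FPKM before exposure, 19081 and 16293 FPKM in the 2 day 10 libraries, 17800, 15849 and 18057 FPKM at day 20, and 15489, 18601 and 16759 FPKM at day 30. All later libraries lay above before exposure replicate 1, 3 of them lay below before exposure replicate 2, and 1 lay above before exposure replicate 3. As a share of all FPKM the members made up 4.84% to 6.46% before exposure, 4.07% and 4.14% at day 10, 4.45% to 5.32% at day 20 and 5.28% to 5.85% at day 30. With major royal jelly protein and mitochondrially encoded transcripts left out of the sum, the shares were 5.03% to 6.78% before exposure, 5.72% and 5.56% at day 10, 5.95% to 6.28% at day 20 and 5.75% to 6.19% at day 30. The day 10 shares were the 2 lowest of the first kind and lay inside the range before exposure in the second kind. Other gland transcripts, apisimin and glucose oxidase, stayed in the second sum. Apisimin had 78596 and 46747 FPKM at day 10, against 9537, 8651 and 5040 FPKM before exposure. A share without these transcripts was not computed, so the place of day 10 depends on what is left out.

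**Figure D2:**
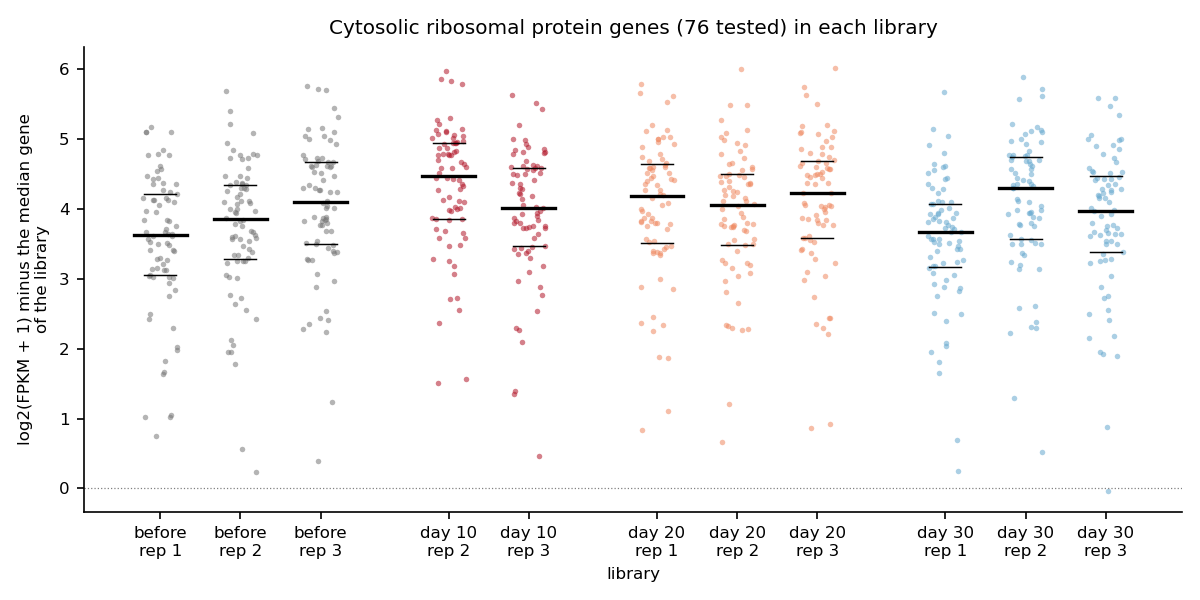
Each point is 1 of the 76 tested members in 1 library, as log2(FPKM + 1) minus the median gene of that library, with the median (thick line) and quartiles (thin lines) of the members. The medians run from 3.63 in before exposure replicate 1 to 4.48 in day 10 replicate 2. Replicates of a group differ by as much as the group means do, except at day 20, where they run from 4.06 to 4.23.

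Measured against the median gene of the same library, on the log2(FPKM + 1) scale, the median member lay 3.63, 3.86 and 4.10 above it before exposure. It lay 4.48 and 4.02 above it in the day 10 libraries, 4.18, 4.06 and 4.23 in those of day 20, and 3.67, 4.30 and 3.98 in those of day 30. At every day at least 1 library lay below before exposure replicate 3, so each day overlapped with before exposure. The pooled SD of this level between replicates of a group was 0.25. Both subunits followed the same course, since the mean deviation of large subunit genes differed from that of small subunit genes by no more than 0.09 in any library.

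Individual members kept close to the common course. The SD relative to the other members was under 0.1 for 34 genes and over 0.2 for 8. The steadiest were S7 (LOC552564), L13a (LOC551418) and L31 (LOC413875), with SDs of 0.056, 0.057 and 0.059. L44 (LOC411515), of the region where the spent transfer RNA leaves, was the least steady with 0.42: it had 36.6, 89.0 and 123 FPKM before exposure, 170 and 115 FPKM at day 10, 124, 97.0 and 109 FPKM at day 20 and 120, 120 and 71.0 FPKM at day 30. Before exposure replicate 1 was its lowest library, at -1.01 from its own mean on the log2 scale once the members' course was subtracted. L23 had an SD of 0.36, with 30.8 FPKM in day 10 replicate 2 and 11.5 FPKM in day 30 replicate 3 as its extremes.

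Of the other 6 genes over 0.2, the next 3 were L29, L39 and L41 (Rpl41), the last a very short peptide at the contact of the subunits. L29 had an SD of 0.33, L39 of 0.27 and L41 of 0.24. All 3 had their lowest value in before exposure replicate 1, with 23.9 FPKM for L29, 23.5 FPKM for L39 and 96.6 FPKM for L41. In the other 10 libraries L39 stayed between 45.8 and 69.5 FPKM. The SD was 0.23 for the S28 gene LOC724629, 0.23 for S21 (LOC551479) and 0.20 for L35 (RpL35). S21 had its lowest value in before exposure replicate 1 with 58.0 FPKM, while that of LOC724629 was in before exposure replicate 2 and that of L35 in day 20 replicate 1.

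**Figure D3:**
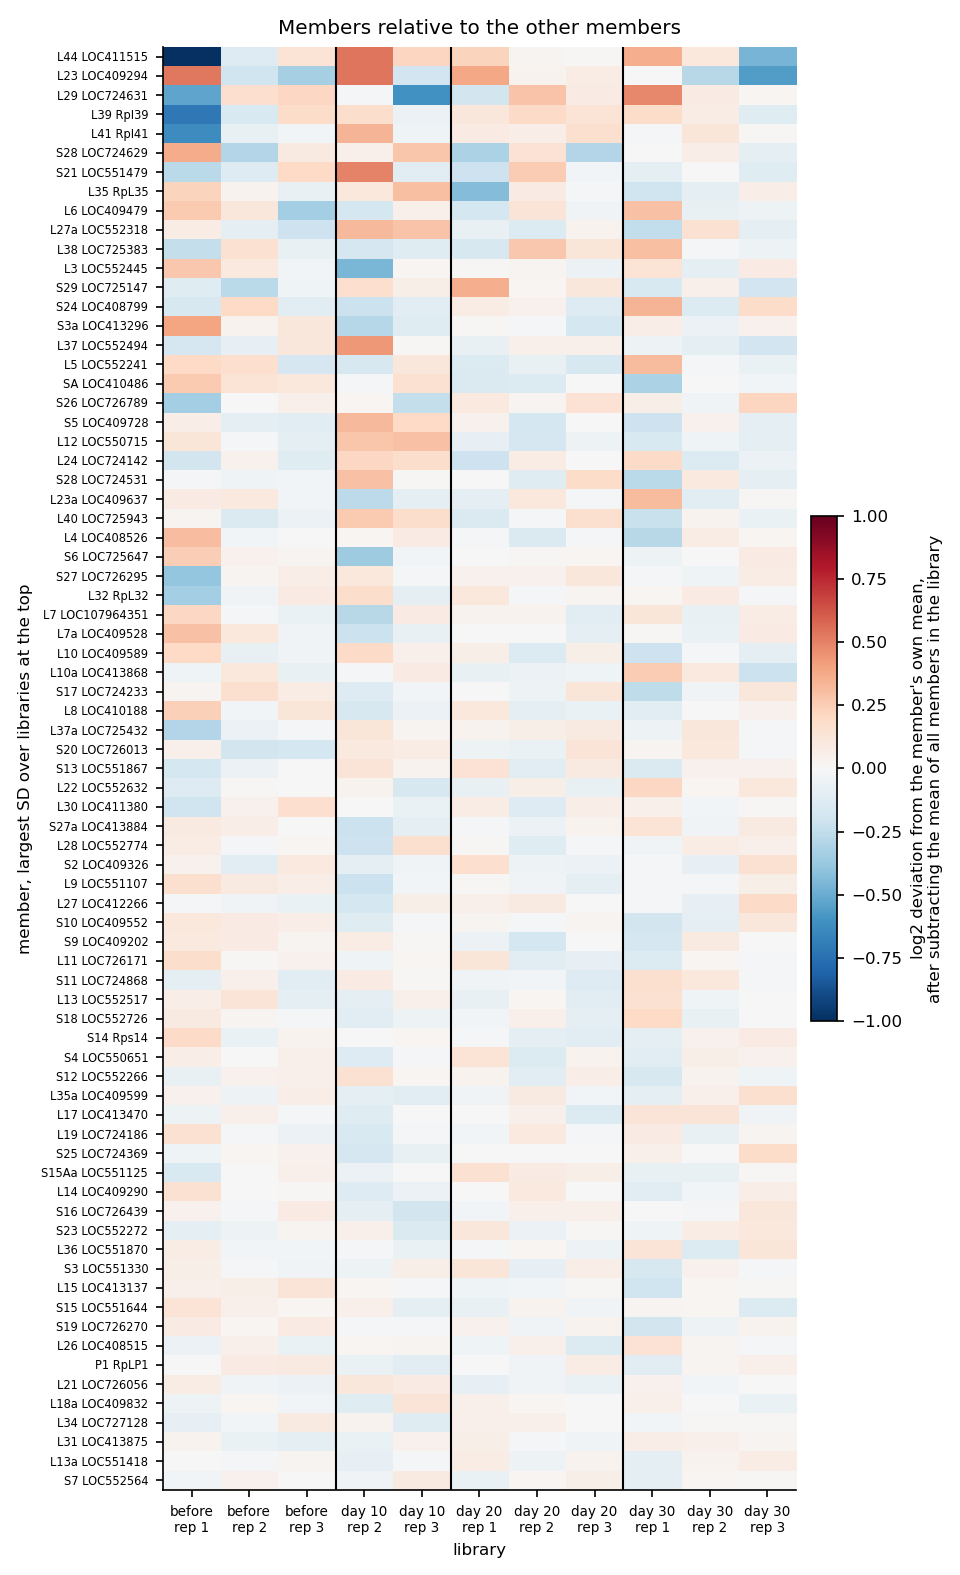
Deviation of each of 75 tested members (rows) from its own mean in each library (columns) on the log2 scale, after the mean deviation of all members in that library was subtracted; the colour scale ends at 1 in either direction. The rows at the top, L44, L23, L29, L39 and L41, have SDs of 0.42 to 0.24, and before exposure replicate 1 holds the darkest cells, down to -1.01 for L44.

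When day 10 was compared with before exposure, no ribosomal protein gene was called in either direction at an adjusted p under 0.05 (limma on log2(FPKM + 1), Benjamini-Hochberg over 7830 genes). In the same comparison 2.22% of all tested genes were called higher and 16.9% lower, 174 and 1326 genes. These counts rest on day 10 replicate 2, without which limma called 0 genes higher and 2 lower (193 and 1097 at an unadjusted p under 0.05). They were 311 and 466 with median-of-ratios scaling and 79 and 4508 with an equal sum of FPKM in every library. As deposited, the median member differed by 0.16 on the log2 scale and 66 of 76 had a positive difference, while the median of all genes was -0.18. Relative to that median gene the members' median was 0.33, a factor of 1.26, and 75 of 76 were above it. The pooled SD of the members' level between replicates of a group was 0.25. Large subunit genes had a median of 0.33 and small subunit genes of 0.34. Non-members with a mean of at least 100 FPKM had a median of -0.09 relative to the same gene.

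At an unadjusted p under 0.05, 7 of the 76 members were higher, 9.21% of them against 5.01% of all genes, and 0 were lower against 28.6% of all genes. Likewise 7 members had all day 10 libraries above all before exposure libraries, against 9.74% of all genes, and 1 had them below, against 38.3%. The 7 higher at an unadjusted p were L12, L27a, L24, S5, L40, S20 and L44. The member below was S3a.

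L12 (LOC550715), at the base of the stalk where elongation factors bind, had 185 and 158 FPKM at day 10, against 107, 126 and 138 FPKM before exposure. Its libraries did not overlap, and the log2 change of 0.47 ± 0.16 (SE) had the smallest adjusted p of the members, 0.054 by limma. L27a (LOC552318) had 368 and 302 FPKM at day 10, against 199, 229 and 244 FPKM before exposure. This gene too was higher in both day 10 libraries than in any before exposure library, with a log2 change of 0.58 ± 0.19 and a limma adjusted p of 0.057. L24 (LOC724142), which forms a bridge between the subunits, had 96.2 and 79.0 FPKM at day 10, against 46.7, 71.6 and 73.5 FPKM before exposure. Its change was 0.47 ± 0.18, with a limma adjusted p of 0.093. In RefSeq L12 overlaps LOC727262, a gene with a mean of 68.8 FPKM, and L24 overlaps a small nucleolar RNA gene.

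On the lower side, S3a and L3 stayed near the median gene. S3a, a small subunit protein, had 399 and 378 FPKM at day 10, against 411, 417 and 505 FPKM before exposure, a change of -0.19 ± 0.15 as deposited and -0.01 relative to the median gene. L3 (LOC552445), near the catalytic centre of the large subunit, had 134 and 157 FPKM at day 10, against 142, 164 and 173 FPKM before exposure, a change of -0.14 ± 0.13. The libraries of L3 overlapped, and those of S3a did not.

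The count of called members at day 10 depended on the scaling and on single libraries. With all libraries brought to an equal sum of FPKM, 31 members were called lower, where 4508 of 7830 genes were. The members' median was then -0.44, where the median of all genes was -0.70. Quantile normalization instead called 5 members higher, where 313 genes were. Without before exposure replicate 3, L44 was called higher, where 131 of 7821 genes were. Without day 10 replicate 2 the members' median relative to the median gene was 0.18. Without day 10 replicate 3 it was 0.51, and the change of L23 was 0.86.

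**Figure D4:**
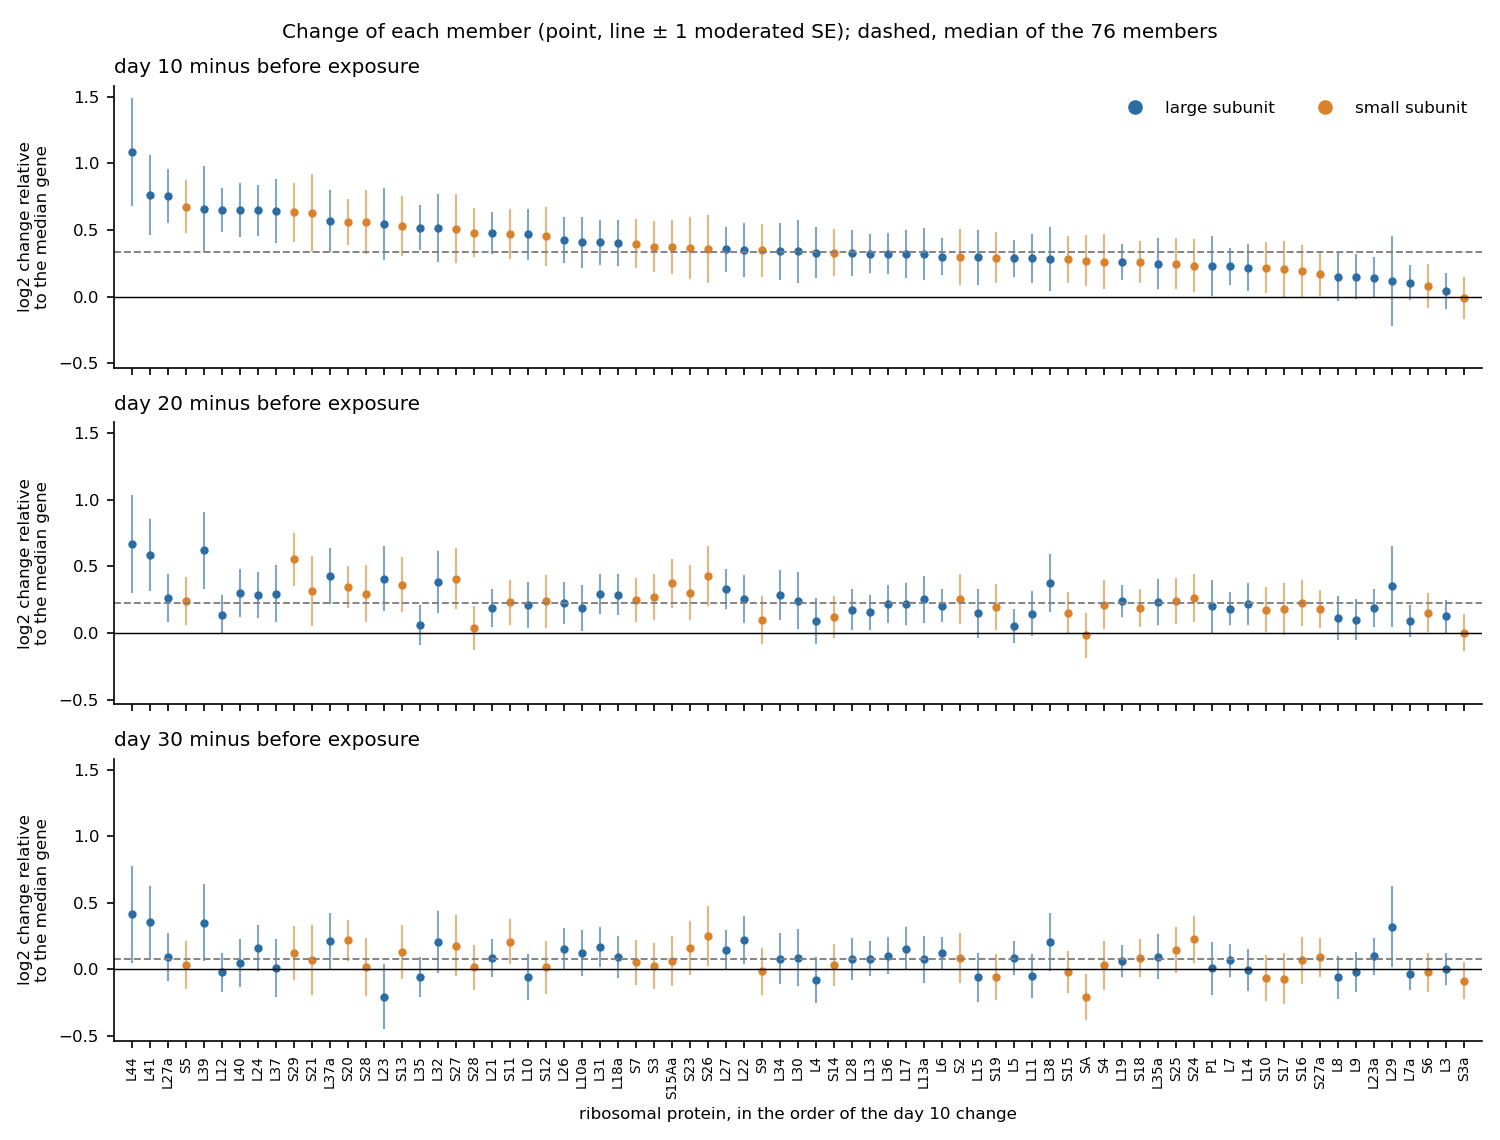
Log2 change of each of 75 tested members relative to the median gene of the comparison, at day 10, day 20 and day 30 minus before exposure, with 1 moderated SE as a line and the median of all 76 as a dashed line. The dashed line stands at 0.33, 0.23 and 0.08 in the 3 panels, the order of genes is that of day 10, and the 3 panels share the before exposure libraries.

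At day 20 against before exposure no gene of the table was called, so 0.0% of all genes and no member passed in either direction. At an unadjusted p under 0.05 limma gave 1 member higher, S29, against 1.28% of all genes, and 0 lower against 8.61%. The members' median was 0.23 relative to the median gene, and 75 of 76 were above it. The pooled SD of 0.25 is between single libraries of a group and is not the error of this difference. The median of all genes was -0.11. Non-members with a mean of at least 100 FPKM had a median of 0.09 relative to the median gene, and 69.6% of them were above it. Without before exposure replicate 1 the members' median was 0.11. S29 (LOC725147), a zinc-binding protein of the small subunit, had 132, 93.4 and 113 FPKM at day 20, against 66.7, 78.3 and 106 FPKM before exposure. The 2 groups overlapped, and the change of 0.44 ± 0.19 had a limma adjusted p of 0.49. The next smallest p on the higher side belonged to L41 with 0.48 ± 0.26 and L39 with 0.51 ± 0.28, both genes with their lowest value in before exposure replicate 1. On the lower side as deposited stood S3a with -0.11 ± 0.13 and SA (LOC410486), a relative of the laminin receptor, with -0.13 ± 0.16. The S28 gene LOC724629 had -0.08 ± 0.16. Relative to the median gene S3a was at 0.002 and this S28 gene at 0.04.

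At day 30 against before exposure again 0.0% of all genes were called in either direction by limma. No member had an unadjusted p under 0.05, where 2.9% of all genes were higher and 4.28% lower. The members' median was 0.08 relative to the median gene, beside an SD of 0.25 between single libraries, and 57 of 76 were above it. It was -0.04 without before exposure replicate 1 and -0.06 without day 30 replicate 2. S20 (LOC726013) had the smallest p with 157, 197 and 159 FPKM at day 30, against 128, 141 and 163 FPKM before exposure, a change of 0.25 ± 0.15 between groups that overlapped (limma adjusted p = 0.75). L41 followed with 0.39 ± 0.26 and S24 (LOC408799) with 0.25 ± 0.17. On the lower side were SA with -0.18 ± 0.16, L23 with -0.18 ± 0.23 and S3a with -0.06 ± 0.13.

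Between the exposed days the members' median relative to the median gene was -0.13 for day 20 minus day 10, -0.17 for day 30 minus day 20 and -0.28 for day 30 minus day 10. These comparisons share libraries with those above and are no separate evidence. For day 20 minus day 10, 0.0255% of all genes were called higher and 0.0766% lower by limma, 2 and 6 genes, none of them a member. Without day 10 replicate 3 these counts were 511 and 38, and without day 10 replicate 2 they were 1 and 0. At an unadjusted p under 0.05, 3 members were lower, against 5.17% of all genes, and 0 higher, against 15.6%. The 3 were L12, L27a and L35 (RpL35), which sits at the opening of the exit tunnel. L12 had 130, 110 and 136 FPKM at day 20, against 185 and 158 FPKM at day 10, with a change of -0.45 ± 0.16. L35 had 42.9, 55.6 and 58.9 FPKM at day 20, against 69.5 and 67.3 FPKM at day 10, with a change of -0.39 ± 0.16, and L27a had a change of -0.43 ± 0.19. In these 3 genes every day 20 library was below every day 10 library. They were picked by their p, and the share of all genes so separated is not given for this comparison. On the higher side as deposited, where the median of all genes was 0.09, were L3 with 0.15 ± 0.13 and L29 with 0.30 ± 0.33. The members' median was 0.05 without day 10 replicate 2 and -0.31 without day 10 replicate 3.

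For day 30 minus day 20 no gene was called by limma, 0.0% in either direction, and no member had an unadjusted p under 0.05, where 5.7% of all genes were higher and 0.728% lower. Only 1 of 76 members was above the median gene. Non-members with a mean of at least 100 FPKM had a median of -0.14, close to the -0.17 of the members. L23 had 16.4, 16.2 and 11.5 FPKM at day 30, against 24.8, 17.3 and 20.2 FPKM at day 20. These groups did not overlap, and the change was -0.47 ± 0.23 with a limma adjusted p of 0.65. L23 was picked by its p, and the share of all genes so separated is not given here. S29 with -0.29 ± 0.19 and S15Aa (LOC551125) with -0.17 ± 0.18 came next. As deposited, where the median of all genes was 0.14, the higher side was led by L5 (LOC552241), which carries the 5S ribosomal RNA, with 0.17 ± 0.12. The S28 gene LOC724629 followed with 0.12 ± 0.16 and S11 (LOC724868) with 0.11 ± 0.16. Relative to the median gene both of these were at -0.02. Without day 30 replicate 1 the members' median was -0.03.

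For day 30 minus day 10, 9.41% of all genes were called higher and 1.37% lower by limma, 737 and 107 genes, and no member was called. Without day 10 replicate 2 the counts over all genes were 0 and 0 (663 and 168 at an unadjusted p under 0.05), and without day 30 replicate 3 also 0 and 0 (1614 and 213). They were 4 and 11 without day 30 replicate 1, 14 and 41 with median-of-ratios scaling and 4149 and 66 with an equal sum. At an unadjusted p under 0.05, 4 members were lower, namely L12, L27a, L35 and S5, against 3.58% of all genes, and 0 were higher, against 26.0%. L12 had 110, 141 and 121 FPKM at day 30, against 185 and 158 FPKM at day 10. Every day 30 library was below both day 10 libraries, and the change of -0.47 ± 0.16 had a limma adjusted p of 0.075. L12 too was picked by its p, and the share of all genes so separated is not given here. L27a had a change of -0.46 ± 0.19 and L35 of -0.37 ± 0.16. As deposited, where the median of all genes was 0.22, the higher side held L3 with 0.17 ± 0.13 and L29 with 0.41 ± 0.33. Relative to the median gene L3 was at -0.05 and L29 at 0.19. The count depended on single libraries: without day 30 replicate 2, L12 and L27a were called lower (limma adjusted p = 0.040 and 0.036), where 189 of 7830 genes were. Without day 10 replicate 3 the change of L23 was -1.03. With an equal sum of FPKM in every library, 27 members were called higher. The members' median was -0.12 without day 10 replicate 2.

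Some members have a particular place in the ribosome or in its control. The stalk is built on P0, which carries pairs of P1 and P2. P1 had 549 ± 126 FPKM before exposure (SD, n = 3), 562 ± 81.0 FPKM at day 10 (n = 2), and 576 ± 58.0 FPKM at day 20 and 556 ± 73.2 FPKM at day 30 (n = 3 each). P0 (LOC550711) and P2 (LOC725884) are described as acidic proteins and lie outside the wording that chose the members. P0 had 342 and 309 FPKM at day 10, against 261, 291 and 323 FPKM before exposure, and its groups overlapped. P2 had 637 and 488 FPKM at day 10, against 284, 364 and 478 FPKM before exposure. Both day 10 libraries were above all before exposure libraries, and the change was 0.60 ± 0.22 (limma adjusted p = 0.080). The 2 stalk partners P1 and P2 thus had changes of 0.05 ± 0.21 and 0.60 ± 0.22 at day 10, and the difference between them was not tested.

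L40 (LOC725943) and S27a (LOC413884) are made as fusions with ubiquitin, which is cut off to leave the ribosomal protein. L40 had 231 and 184 FPKM at day 10, against 126, 145 and 177 FPKM before exposure. Its groups did not overlap, and the change was 0.47 ± 0.19 (limma adjusted p = 0.11). S27a had 169 and 156 FPKM at day 10, against 134, 172 and 188 FPKM before exposure, with overlapping groups and a change of -0.01 ± 0.15 (limma adjusted p = 0.97). S6 (LOC725647), the small subunit protein that S6 kinase phosphorylates, had 337 and 358 FPKM at day 10, against 328, 370 and 421 FPKM before exposure, a change of -0.10 ± 0.16 between overlapping groups. Of the 2 genes named S28, LOC724531 had a change of 0.38 ± 0.23 and LOC724629 of 0.30 ± 0.18 at day 10.

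Other genes of translation were read from lists chosen by description. Their counts at day 10 stand beside 2.22% of all tested genes called higher and 16.9% lower, and those for day 30 minus day 10 beside 9.41% higher and 1.37% lower. Of 72 tested mitochondrial ribosomal protein genes, which serve the separate ribosome of the mitochondrion, none was called at any day against before exposure. Their median relative to the median gene was 0.37 at day 10, 0.14 at day 20 and 0.19 at day 30, beside 0.33, 0.23 and 0.08 for the cytosolic genes. None of the 22 aminoacyl-tRNA synthetases, which load transfer RNAs, and none of the 8 elongation and release factors was called in any comparison, with medians of 0.23 and 0.18 at day 10. Of 51 genes of the ribosome biogenesis list, with a median of 0.24 at day 10, 1 was lower. This was LOC408958, described as nucleolar protein 4-like, which is in the list by that wording alone. It averaged 7.88 ± 0.28 FPKM at day 10 (n = 2), against 14.0 ± 2.41 FPKM before exposure (n = 3), with a limma adjusted p of 0.014, and it was higher at day 30 than at day 10 (limma adjusted p = 0.034).

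Of 33 genes listed because their description names an initiation factor, with a median of 0.13 at day 10, 1 was lower and none higher at day 10. This was LOC727230, the 4E transporter, which binds the cap-binding factor, with 12.6 ± 1.30 FPKM at day 10 (n = 2) against 18.6 ± 1.61 FPKM before exposure (n = 3; limma adjusted p = 0.037). LOC408556, initiation factor 5B, which joins the subunits, was higher at day 30 than at day 10, with 11.1 ± 1.79 FPKM against 6.26 ± 1.22 FPKM (n = 3 and 2; limma adjusted p = 0.049). Among 10 ribosome-associated factors, with a median of 0.29 at day 10, SRP68 (LOC552776), of the signal recognition particle that takes ribosomes to the endoplasmic reticulum, was higher at day 10 with 15.3 ± 1.02 FPKM against 10.0 ± 1.41 FPKM before exposure (n = 2 and 3; limma adjusted p = 0.048).

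**Figure D5:**
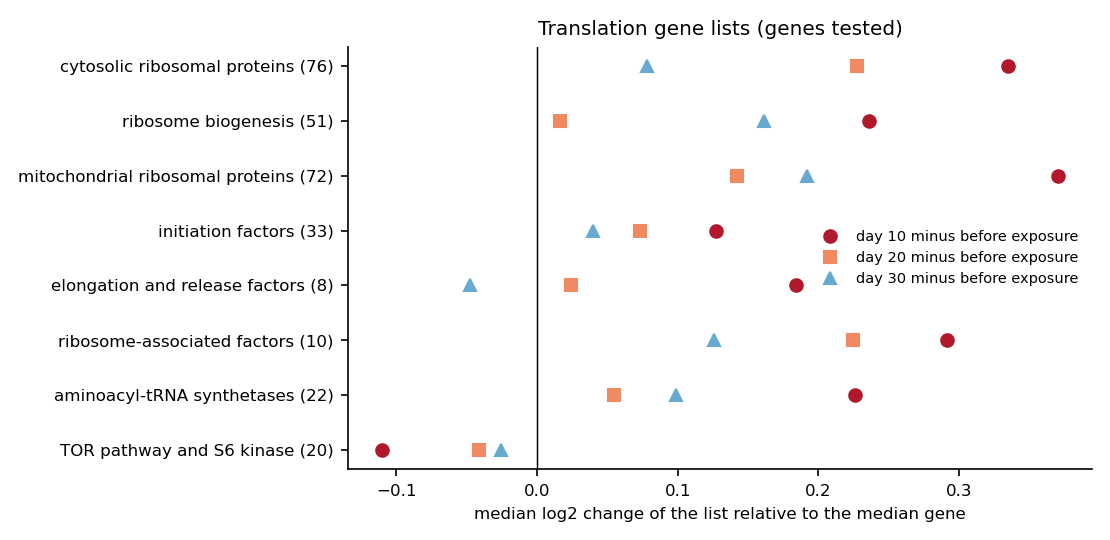
Median log2 change relative to the median gene for the cytosolic ribosomal proteins and 7 other translation lists, with the number of genes tested in brackets, at day 10, day 20 and day 30 minus before exposure. At day 10 the cytosolic and mitochondrial ribosomal proteins lie at 0.33 and 0.37 and the TOR list at -0.11.

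Of the 20 genes of the TOR and S6 kinase list 3 were called lower at day 10, a share near the 16.9% of all genes, and the list's median was -0.11. LOC411630, ribosomal protein S6 kinase alpha-5, averaged 15.8 ± 4.68 FPKM at day 10 (n = 2), against 27.2 ± 0.79 FPKM before exposure (n = 3; limma adjusted p = 0.0085). LOC411481, ribosomal protein S6 kinase alpha-2, averaged 16.4 ± 3.05 FPKM at day 10, against 28.2 ± 1.35 FPKM before exposure (limma adjusted p = 0.0063). In mammals the kinases of these names act in the MAP kinase pathway rather than under TOR. LOC413223, the Rictor subunit of TOR complex 2, averaged 9.58 ± 0.80 FPKM at day 10, against 15.8 ± 1.97 FPKM before exposure (limma adjusted p = 0.020). Both kinases were higher at day 30 than at day 10 (limma adjusted p = 0.025 for alpha-5 and 0.038 for alpha-2). Without day 10 replicate 2 none of the calls on single genes of these lists held: the limma adjusted p then ran from 0.12 for alpha-2 at day 10 to 0.48 for initiation factor 5B. Of 22 alternatives, 14 ended the call of SRP68, 12 that of the 4E transporter and 15 that of initiation factor 5B. The call of alpha-2 for day 30 minus day 10 ended in 14, that of alpha-5 in 6 and that of LOC408958 in 12. At day 10 the call of LOC408958 ended in 3 and that of Rictor in 5, both with median-of-ratios scaling and with quantile normalization, while alpha-2 and alpha-5 lost theirs only without day 10 replicate 2.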

How the data were processed

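Per the file headers, the authors deposited FPKM per gene and library, rounded to 2 decimals. Tools listed in the submitters' processing notes are StringTie, HISAT2 2.1.0 and fastp 0.18.0, whose roles are not stated; the build is not given in the sources used here. Of 12 FPKM columns 1, headed as a first replicate of day 10, has no labelled sample and was not used. Steps in low values gave relative depths that agreed within 0.1 log2 in only 29 of 45 library pairs, so no depth was used. No 2 libraries shared more than 1.42% of their values above 0.

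The test was limma 3.58.1 (R 4.3.3) with a trend on log2(FPKM + 1), for the 7830 genes averaging 1 FPKM or more, in one fit of 4 groups with 7 residual degrees of freedom and Benjamini-Hochberg adjustment in each comparison. The scale understates changes of low genes. A change relative to the median gene is the change minus the median over all tested genes. The members and lists were chosen with earlier results of these data known, so no list was tested. One member is counted in every total but not reported here by name. Named members otherwise are the 8 highest and 5 lowest, the 3 smallest p in each direction of a comparison, the stalk, ubiquitin-fusion, S6 and S28 genes, and the 5 least and 3 most steady; named genes of other lists are those that passed, and the 8 of highest r. RefSeq (Amel_HAv3.1) served for names and overlaps; all 77 members matched. Alternatives were other scalings, filters, pseudocounts, fits, a replicate block and leaving out each library.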

Additional observations from a re-analysis of the deposited data

How the results depend on the processing

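No member was called under any alternative at day 20 or day 30 against before exposure, day 20 minus day 10 or day 30 minus day 20. At day 10 the 0 called members became 2 higher with median-of-ratios scaling (L12 and L24), where 311 of 7830 genes were called higher. Quantile normalization called 5 higher, where 313 genes were. An equal sum of FPKM called 31 lower, where 4508 genes were. A filter of 5 FPKM called 2 higher (L12 and L27a), where 151 of 5859 genes were. With 1 library of a group of 3 left out, 0 to 2 were called. Those calls, all higher, were L44 without before exposure replicate 3, and L12 and L27a without day 30 replicate 1 or 2. In these fits 131 of 7821, 228 of 7809 and 207 of 7830 genes were called higher. Without day 10 replicate 3 the change of L23 was 0.86. For day 30 minus day 10 quantile normalization called 1 lower, where 85 genes were. An equal sum called 27 higher, where 4149 genes were. With 1 library of a group of 3 left out, 0 to 2 were called. The 2 were lower without day 30 replicate 2, where 189 of 7830 genes were. The causes were not tested.

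The members' median relative to the median gene, with 1 library left out, ran from 0.18 to 0.51 at day 10, from 0.11 to 0.35 at day 20 and from -0.06 to 0.19 at day 30. It ran from -0.31 to 0.05 for day 20 minus day 10, from -0.29 to -0.03 for day 30 minus day 20 and from -0.46 to -0.12 for day 30 minus day 10. Quantile normalization gave 0.11 at day 20, -0.03 for day 30 minus day 20 and -0.16 for day 30 minus day 10, and an equal sum -0.08 for day 20 minus day 10. The sign at day 30 and for day 20 minus day 10 therefore rests on single libraries. Same-numbered libraries deviated together with r over 0.1 in 3 of 15 pairs, and differently numbered ones in 10 of 30. Deviations from a group mean cancel within the group, so these r cannot show whether the numbers mark pairs. A replicate block called 0 members in each comparison and gave medians of 0.27 at day 10, -0.05 for day 20 minus day 10 and -0.20 for day 30 minus day 10. Scaling every library to the members, chosen after seeing the data, called 0 members. That scaling takes out most of the members' common change, so its count cannot show whether they changed together.

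Of 546 recomputed changes of named members 512 kept direction and side of the threshold, 14 passed it and 20 changed sign. An equal sum and median-of-ratios scaling move all genes of a library alike, and relative to the median gene 16 of the 20 kept their sign. With an equal sum the log2 change was -0.125 for L12, -0.0258 for L27a and -0.125 for L24 at day 10, 0.0362 for S15Aa (day 30 minus day 20), and 0.0230 for L12, 0.0365 for L27a and 0.118 for L35 (day 30 minus day 10). With median-of-ratios scaling it was 0.0315 for S3a and 0.0814 for L3 at day 10, 0.0137 for S3a and 0.0419 for S28 (LOC724629) at day 20, -0.0210 for S28 and -0.0319 for S11 (day 30 minus day 20), and -0.0719 for L3 (day 30 minus day 10). Quantile normalization gave S28 0.0540 at day 20 and -0.0121 for day 30 minus day 20. With 1 library left out, S28 ran from -0.222 to 0.0712 at day 20 and S3a from -0.111 to 0.0381 at day 30, both highest without before exposure replicate 3. L29 ran from -0.118 to 0.719 for day 20 minus day 10 and from -0.0109 to 0.826 for day 30 minus day 10, both lowest without day 10 replicate 3. Where 1 day 10 library was left out, the other was assumed to vary like the other groups. FPKM without depth give no counting error, and 2 libraries at day 10 limit every comparison with it.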

Other observations

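Genes outside the wording that chose the members followed the same course over the libraries. Over the 11 libraries, with all 4 groups pooled, the mean of the members relative to the median gene had its highest Pearson r with LOC412141, tumor suppressor candidate 3, at 0.983. LOC409802, proteasome subunit alpha type-2, had an r of 0.975, and LOC413145, subunit F of initiation factor 3, which prepares the small subunit for the messenger, of 0.969. LOC552551, small integral membrane protein 14, and the stalk protein P2 (LOC725884) each had an r of 0.968. LOC726721, Sec61 gamma, a part of the channel through which ribosomes feed secreted proteins into the endoplasmic reticulum, had an r of 0.967. LOC551411, proteasome maturation protein, and LOC411206, proteasome subunit beta type-5, had r of 0.966 and 0.960. The proteasome degrades proteins marked with ubiquitin.

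These values are descriptions over 11 libraries that share groups, library composition and the median gene they are measured against. Proteasome alpha type-2 had 81.3 and 72.4 FPKM at day 10, against 46.9, 62.3 and 76.0 FPKM before exposure, so its lowest library was, as for most ribosomal protein genes, before exposure replicate 1. An r over 0.9 was found for 50 of the 76 members, each of which is part of the mean it is compared with, and for 50 of 7754 other genes. The lowest r of a member was 0.59, for L6 (LOC409479).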
